A study of Mus musculus with 6 samples.

Results

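The interferon-gamma inducible GTPases were followed here in MC38 tumors. The 10 genes were taken by name from the 33965 genes of the deposited table. They are 5 guanylate-binding proteins (Gbp2, Gbp3, Gbp4, Gbp5 and Gbp7) and 5 immunity-related GTPases (Irgm1, Irgm2, Igtp, Iigp1 and Tgtp1). Bulk RNA-seq was performed on 6 tumors grown from MC38, a mouse colon carcinoma cell line, under the skin of female C57BL/6 mice aged 6 weeks at purchase. Of these, 3 were from PBS-treated and 3 from GB2-treated hosts. GB2 is a prodrug in which MSA-2, a STING agonist, is linked to artesunate, an inhibitor of TREM2, by a disulfide bond that glutathione opens. Neither group carries a genetic change, the dose and day of the sequenced tumors are not in the labels, and the comparison asks how GB2 treatment alters RNA levels in the tumor. The labels do not say that each tumor came from a separate mouse, so the p-values measure the spread between these tumors.

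Interferon-gamma is released mainly by T cells and NK cells. It signals through JAK kinases to genes with GAS elements, and induces IRF1, which binds ISRE elements, so that cells load their cytosol with GTPases. Guanylate-binding proteins assemble on the membranes of intracellular microbes and help caspase-11 sense lipopolysaccharide. Among the immunity-related GTPases, the IRGM proteins (Irgm1, Irgm2 and Igtp, also named Irgm3) carry a methionine in the nucleotide-binding loop and hold the effector proteins encoded by Iigp1 and Tgtp1 inactive on the host's own membranes. Several members also answer to type I interferon, the cytokine made after STING activation.

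Because the members are known as interferon-gamma targets, the letters of the GAS and ISRE motifs were looked up in their promoters. RefSeq promoters (GRCm38.p6, 250 bases before to 50 bases after the start site) were on hand for 8 of the 10 members, with 9 start sites in all because Gbp3 has 2. The search covered both strands for the GAS letters TTCNNNGAA and for the ISRE core, which is GAAA, any 2 bases and GAAA again. The motifs do not overlap each other in any member. The ISRE core was in 8 of the 9 member promoters and in 3.44% of all 32851 promoters of the same length. The GAS letters were in 5 of the 9 and in 8.30% of all promoters. Both were in 5 of the 9 and in 0.454% of all. Among 8 promoters of other interferon-inducible GTPases, the ISRE core was in 4, the GAS letters in 2 and both in 2. The 120 bases before the start site are shown on the gene's strand for the 8 members, with both motifs in capitals, because they show how the motifs are placed.
Igtp: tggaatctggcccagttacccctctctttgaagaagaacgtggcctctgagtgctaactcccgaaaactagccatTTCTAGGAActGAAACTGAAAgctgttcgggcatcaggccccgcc
Irgm2: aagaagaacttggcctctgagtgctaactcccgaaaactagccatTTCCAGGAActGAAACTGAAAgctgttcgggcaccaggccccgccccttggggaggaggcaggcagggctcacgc
Tgtp1: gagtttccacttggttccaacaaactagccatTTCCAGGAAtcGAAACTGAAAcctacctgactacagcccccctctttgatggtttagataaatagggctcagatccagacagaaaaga
Irgm1: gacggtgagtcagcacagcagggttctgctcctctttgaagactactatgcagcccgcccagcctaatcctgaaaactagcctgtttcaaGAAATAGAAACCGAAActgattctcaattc
Gbp2: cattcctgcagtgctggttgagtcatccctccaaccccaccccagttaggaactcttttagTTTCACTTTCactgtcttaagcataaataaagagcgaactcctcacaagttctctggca
Gbp3: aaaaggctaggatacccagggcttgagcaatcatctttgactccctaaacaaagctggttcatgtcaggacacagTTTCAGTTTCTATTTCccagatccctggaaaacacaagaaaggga
Gbp7: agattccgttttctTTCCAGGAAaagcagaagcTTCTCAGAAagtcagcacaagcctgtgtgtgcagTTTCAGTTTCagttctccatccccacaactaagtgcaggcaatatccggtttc
Gbp5: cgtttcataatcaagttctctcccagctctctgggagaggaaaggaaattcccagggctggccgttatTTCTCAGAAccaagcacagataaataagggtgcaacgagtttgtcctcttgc
These stretches are chr11:58199436-58199555 (plus strand) for Igtp, chr11:58214857-58214976 (plus) for Irgm2, chr11:48992247-48992366 (minus) for Tgtp1, chr11:48871421-48871540 (minus) for Irgm1, chr3:142620543-142620662 (plus) for Gbp2, chr3:142559924-142560043 (plus) for Gbp3, chr3:142530216-142530335 (plus) for Gbp7 and chr3:142496814-142496933 (plus) for Gbp5. In Igtp, Irgm2 and Tgtp1 the GAS letters and the ISRE core are 2 bases apart. Gbp7 has 2 GAS matches and 1 ISRE core with 25 bases between the nearest pair. Irgm1 and Gbp3 each have 2 overlapping ISRE cores and no GAS letters, and Gbp2 has 1 ISRE core. Gbp5 has its ISRE core and another GAS match farther upstream, outside the stretch shown. These matches describe letters only. Whether a factor binds there was not measured.

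The members lie on 4 chromosomes, at the positions given in the deposited table. Gbp5 (142199739 to 142228105), Gbp7 (142236103 to 142255910), Gbp3 (142265787 to 142278970) and Gbp2 (142326363 to 142343769) follow each other on the plus strand of chromosome 3. Gbp4 lies on the minus strand of chromosome 5 from 105263633 to 105287452, where Gbp8 and Gbp9 overlap 23774 and 23773 of its 23820 bases on the same strand, so counts can be split between these genes and the value of Gbp4 is uncertain. Irgm1 (48752795 to 48762510) and Tgtp1 (48876154 to 48884999) lie on the minus strand of chromosome 11, and Igtp (58090382 to 58098417) and Irgm2 (58105834 to 58113608) on its plus strand. Iigp1 lies on chromosome 18 from 60509099 to 60525172. Tgtp1 has a near-identical neighbor, Tgtp2, which can share its reads, and it lies inside Olfr56 on the opposite strand. Gbp7 shares 637 bases with Gm43802. Whether the counting used strand is not given in the sources used here.

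The libraries held between 64764405 and 83690056 estimated counts, and the 3 GB2 libraries were the 3 largest. About 4 counts may stand for 1 read pair. This was inferred from how often the value 4 occurs, so read pairs given below are estimates. CPM values are counts scaled with TMM factors, which correct for library size and composition. Of the tested genes, 19602 in all, 0 (0%) were called between GB2 and PBS tumors by edgeR's quasi-likelihood test, where a call needed a 2-fold change and an adjusted p below 0.05, while 1360 (6.94%) had an unadjusted p under 0.05 and DESeq2 called 385 genes. All 10 members passed the filter on low counts, and each had counts in every tumor, down to 15 counts (about 4 read pairs) for Gbp5 in PBS tumor 3. The epithelial markers Epcam, Krt8 and Krt18 were at 2.42 CPM or less in every tumor, and Krt19 was listed at 0 in 3 of the 6. Cdh1 of the same list reached 3.99 CPM in GB2 tumor 3. The 6 epithelial markers summed to 2.36, 1.59 and 1.03 FPKM in the PBS tumors and to 1.28, 3.62 and 2.90 FPKM in the GB2 tumors. In 1 of the 5 tested (Epcam), all GB2 tumors were above all PBS tumors, against 8.61% of all tested genes. Krt14 of skin keratinocytes was found in every tumor, from 4.58 CPM in PBS tumor 3 to 47.5 CPM in GB2 tumor 3. Acta1 of muscle ran from 29.2 to 84.2 CPM and was higher in each GB2 tumor than in any PBS tumor. The same held for 4 of the 6 muscle markers, against 8.61% of all tested genes. Myh4 was lower in GB2 tumor 3 (12.5 CPM) than in PBS tumors 2 (18.6 CPM) and 3 (40.2 CPM).

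GB2 tumors had higher mean levels of every member than PBS tumors, but for every member the tumors within each group lay farther apart than the group means. All 10 members were lowest in PBS tumor 3 and all 10 were highest in GB2 tumor 3. PBS tumor 3 was the lowest of the 6 tumors in 19.4% of all tested genes, GB2 tumor 3 was the highest in 14.3%, and both held in 5.08%. In edgeR 0 of the 10 members were called, and 0 had an unadjusted p under 0.05, which 4.69% of tested genes had with a higher level in GB2 tumors. A 2-fold difference with that unadjusted p was met by 3.74% of tested genes in the higher and 0.918% in the lower direction, and by 0 members. Without a p, 5 members and 7.35% of tested genes were at least 2-fold higher. The ranges of the groups overlapped in all 10. In bulk RNA, fewer cells of a type and less RNA per cell cannot be told apart.

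Among the guanylate-binding proteins, Gbp2, which is recruited to microbe-containing vacuoles, was at 15.3, 28 and 1.71 CPM in the PBS tumors and at 9.23, 31.4 and 65.4 CPM in the GB2 tumors. PBS tumor 2 and GB2 tumor 2 were thus nearly level, and GB2 tumor 1 lay below 2 of the 3 PBS tumors. The means were 15.0 ± 13.2 CPM in PBS and 35.3 ± 28.3 CPM in GB2 tumors (SD, n = 3 each). In edgeR its log2 fold change was 1.23 ± 0.96 (SE, adjusted p 0.796).
Gbp7 was at 7.0, 20.3 and 2.55 CPM in the PBS tumors and at 9.06, 21.7 and 39.7 CPM in the GB2 tumors. GB2 tumors 2 and 3 were above all PBS tumors, and GB2 tumor 1 was below PBS tumor 2. The log2 fold change was 1.24 ± 0.77 (SE) with an adjusted p of 0.764 from edgeR.
Gbp3, which takes part in the caspase-11 response, was at 7.63, 12 and 1.29 CPM in the PBS tumors and at 4.84, 10.3 and 22.6 CPM in the GB2 tumors. Gbp4 was at 4.11, 18.7 and 0.75 CPM in the PBS tumors and at 3.49, 10.6 and 24.7 CPM in the GB2 tumors. Gbp5, which promotes assembly of the NLRP3 inflammasome, was the least abundant, at 1.52, 3.49 and 0.212 CPM in the PBS tumors and at 1.5, 2.26 and 5.55 CPM in the GB2 tumors. In these 3 genes PBS tumor 2 was above GB2 tumors 1 and 2. Their log2 fold changes were 0.85, 0.72 and 0.83, with adjusted p values of 0.818, 0.884 and 0.842 in edgeR.

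Of the regulatory IRGM genes, Irgm1 had the highest CPM of the members in all 6 tumors, at 40.7, 78 and 14.4 CPM in the PBS tumors and at 27, 55.4 and 159 CPM in the GB2 tumors. It also varied least, with 11 times as much in the highest as in the lowest tumor. Its log2 fold change was 0.86 ± 0.75 (SE), with an adjusted p of 0.810 from edgeR.
Irgm2 was at 7.34, 23 and 2.6 CPM in the PBS tumors and at 11.3, 28.3 and 50.5 CPM in the GB2 tumors. It had the highest log2 fold change of the members, 1.45 ± 0.80 (SE), and the lowest unadjusted p, 0.110, which became 0.757 after adjustment in edgeR. The 95% interval of the log2 fold change ran from -0.42 to 3.32. In DESeq2, Irgm2 alone of the members had an unadjusted p under 0.05 (0.0486, adjusted p 0.546), as did 9.05% of all tested genes.
Igtp was at 15.2, 34.9 and 1.84 CPM in the PBS tumors and at 7.93, 28.5 and 67.4 CPM in the GB2 tumors, with a log2 fold change of 1.0 ± 1.01 (SE, adjusted p 0.832 in edgeR). Igtp and Irgm2 are neighbors in the genome, and GB2 tumor 1 lay below PBS tumor 1 in Igtp and above it in Irgm2.

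The effector genes varied most. Iigp1, whose product coats and disrupts the vacuoles of intracellular parasites, was at 12, 32.8 and 1.12 CPM in the PBS tumors and at 5.9, 25.2 and 66.6 CPM in the GB2 tumors. Tgtp1, which encodes another effector of the same class, was at 12.7, 38.8 and 0.82 CPM in the PBS tumors and at 4.67, 26.3 and 101 CPM in the GB2 tumors. Tgtp1 in GB2 tumor 3 was 123 times as high as in PBS tumor 3, and Iigp1 was 59.6 times as high. Their log2 fold changes were 1.09 ± 1.13 and 1.33 ± 1.31 (SE), with adjusted p values of 0.836 and 0.824 in edgeR.
When Tgtp1 was summed with its copy Tgtp2, the PBS tumors were at 30.5, 88.4 and 1.41 CPM and the GB2 tumors at 11.4, 61.3 and 219 CPM. The sum had the same order of tumors as Tgtp1, which took between 40.9% and 58.0% of it.

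**Figure D1:**
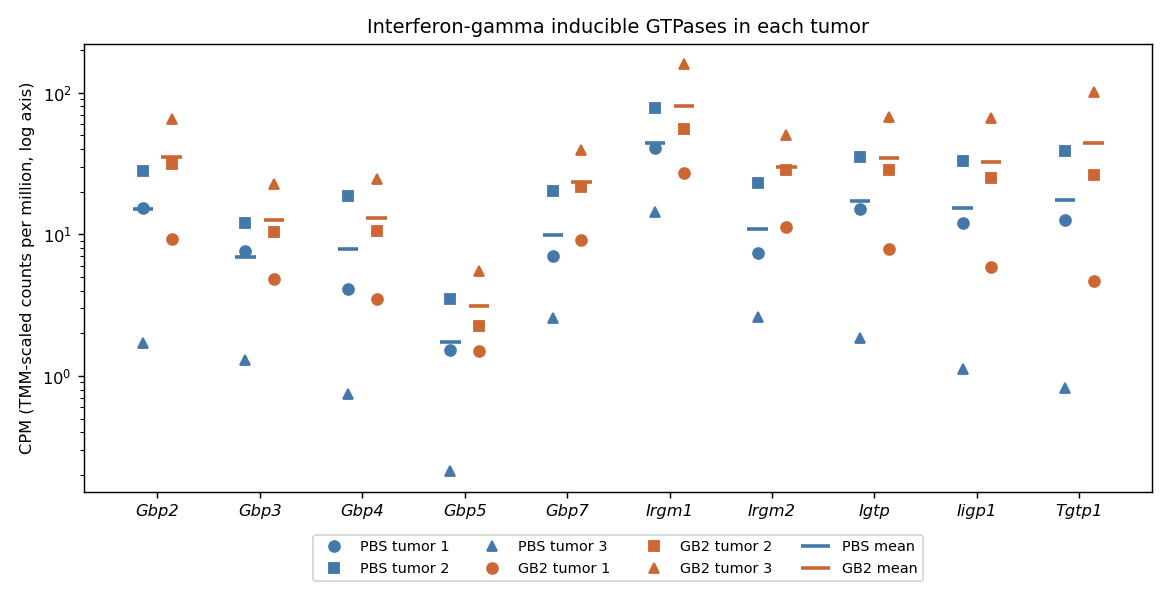
TMM-scaled CPM (log axis) of the 10 GTPases in each tumor, with PBS tumors in blue, GB2 tumors in orange, a shape for each tumor number and a bar at the group mean. PBS tumor 3 is the lowest and GB2 tumor 3 the highest point of every gene, and the other tumors of both groups overlap.

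The order of the tumors was shared by most members. In 7 of the 10 (Gbp3, Gbp4, Gbp5, Irgm1, Igtp, Iigp1 and Tgtp1) it ran PBS tumor 3, GB2 tumor 1, PBS tumor 1, GB2 tumor 2, PBS tumor 2 and GB2 tumor 3, from low to high. Gbp2 differed only in that GB2 tumor 2 was above PBS tumor 2. In Gbp7 and Irgm2, GB2 tumor 1 was also above PBS tumor 1. The median log2 CPM difference of PBS tumor 3 minus GB2 tumor 3 was -4.88 over the members. PBS tumor 2 minus PBS tumor 3 came to 4.04, and PBS tumor 2 minus GB2 tumor 2 to 0.34, with PBS tumor 2 higher in 7 of the 10.

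Levels were compared between genes by FPKM, which corrects for transcript length. Over all 6 tumors the mean level was 12.4 FPKM for Igtp, 10.4 for Irgm1, 9.66 for Gbp2, 9.29 for Tgtp1, 5.39 for Irgm2, 3.97 for Iigp1, 2.88 for Gbp7, 2.87 for Gbp3, 1.34 for Gbp4 and 0.349 for Gbp5. Gbp3 was above Gbp4 and Gbp4 above Gbp5 in 6 of 6 tumors, by 1.42 ± 0.60 and 1.72 ± 0.47 on the log2 FPKM scale (SD, n = 6). The other neighbors in this order did not differ by more than the SD of their difference over the tumors. Summed over the 5 immunity-related GTPases, the level was 19.3, 52.6 and 4.40 FPKM in the PBS tumors and 14, 41.8 and 116 FPKM in the GB2 tumors. The 5 guanylate-binding proteins summed to 8.94, 20.6 and 1.61 FPKM in the PBS tumors and to 7.39, 20.3 and 43.8 FPKM in the GB2 tumors. The ratio of these sums stayed between 1.89 and 2.74 in all 6 tumors, so both sums were high or low together.

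The spread between tumors of a group was set against that of all genes tested. The within-group SD of log2 CPM had a median of 1.68 over the members and of 0.41 over all tested genes. Large spreads were not particular to the members. Among lists read below, the median was 1.95 for T cell markers and 1.61 for other interferon-inducible GTPases. For interferon-gamma targets it was 1.42, and for NK and cytotoxic markers 1.40. Type I interferon-stimulated genes (0.66) and macrophage markers (0.62) had smaller medians. Among the members the SD ran from 1.26 for Irgm1 to 2.55 for Tgtp1, and 8.47% of all tested genes had an SD at or above that of Irgm1. The SD of Tgtp1 was above that of 99.3% of genes and the SD of Iigp1 above that of 98.4%. Of the 10 members, 5 (Gbp2, Gbp4, Igtp, Iigp1 and Tgtp1) were among the 5% of genes with the largest SD.

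**Figure D2:**
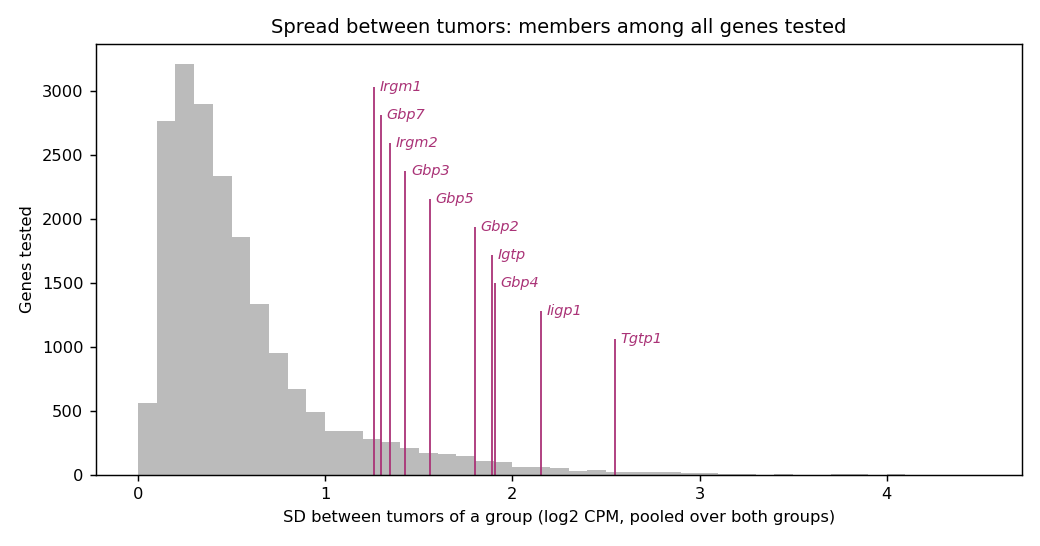
Histogram of the within-group SD of log2 CPM over the 19602 tested genes (number of genes on the vertical axis), with a line at the SD of each member, whose height has no meaning. All members lie in the right tail, from 1.26 (Irgm1) to 2.55 (Tgtp1), while the median of all genes is 0.41.

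For the comparison of GB2 with PBS tumors over the members, all 10 log2 fold changes were above 0, against 48.3% of all tested genes, and ran from 0.72 (Gbp4) to 1.45 (Irgm2). Their median was 1.04, against -0.02 over all tested genes. The adjusted p values ran from 0.757 to 0.884 (edgeR, adjusted over all tested genes). In 0 of the 10 members did all GB2 tumors lie above all PBS tumors, which was so in 8.61% of all tested genes, and in 0 did all lie below (6.68%). Every 95% interval held 0, and the widest, that of Tgtp1, ran from -1.71 to 4.38.
The size of the difference depended on single tumors. Without GB2 tumor 3 the median log2 fold change of the members was 0.09 and that of Gbp4 (-0.15), Irgm1 (-0.11) and Tgtp1 (-0.17) changed sign. Without PBS tumor 3 the median was 0.50, with 10 of 10 members still above 0. Without PBS tumor 2 it was 2.18, and Gbp7 (log2 fold change 2.30, unadjusted p 0.0192) and Irgm2 (2.60, 0.0125) had an unadjusted p under 0.05 in edgeR, with adjusted p values of 0.570 and 0.526. In that fit 7.32% of all tested genes had an unadjusted p under 0.05. Without GB2 tumor 1 the median was 1.53.

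**Figure D3:**
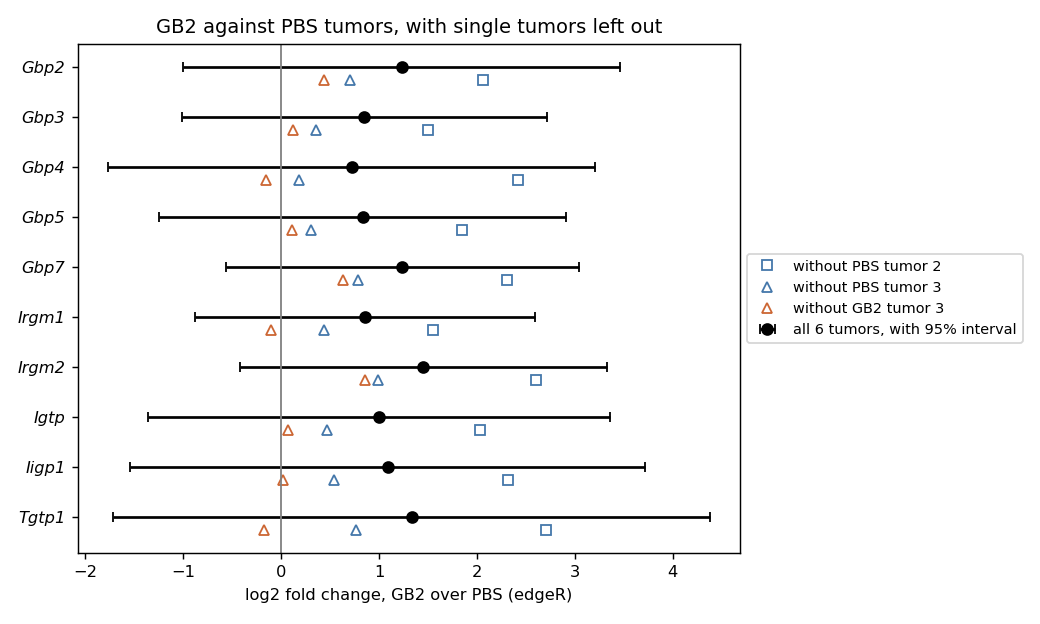
Log2 fold change of GB2 over PBS tumors for each member from edgeR, with its 95% interval (black) and the values with PBS tumor 2, PBS tumor 3 or GB2 tumor 3 left out (open symbols). Every interval crosses 0, and without GB2 tumor 3 the values lie between -0.17 (Tgtp1) and 0.86 (Irgm2).

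Other interferon-inducible GTPases were read in the same way. Of 17 further genes of both families and the very large inducible GTPases, 16 were tested. Of these, 12 were lowest in PBS tumor 3, 1 more (Gbp2b) was at 0 there and in PBS tumor 1, and 12 were highest in GB2 tumor 3. In 14 of the 16 the log2 fold change was above 0 (48.3% of all tested genes), with a median of 1.21, and 0 were called. All GB2 tumors were above all PBS tumors in 3 of the 16 (Gvin1, 9930111J21Rik1 and 9930111J21Rik2), against 0 of the 10 members and 8.61% of all tested genes, and 2 had an unadjusted p under 0.05 (6.94% of all tested genes). Tgtp2 had a mean of 12.5 FPKM over all tumors and a log2 fold change of 1.23 (adjusted p 0.843 in edgeR). It was above Igtp, the member with the highest mean, in GB2 tumor 3 alone (39.8 against 33.1 FPKM) and below it in the other 5 tumors. Ifi47, another effector of the IRG family, had a mean of 8.34 FPKM and a log2 fold change of 0.23. In it both PBS tumor 1 (26.2 CPM) and PBS tumor 2 (32.7 CPM) were above GB2 tumor 1 (5.38 CPM) and GB2 tumor 2 (15.0 CPM). The 2 genes with the smallest p were 9930111J21Rik2 (log2 fold change 1.22, unadjusted p 0.0439, adjusted p 0.705 in edgeR) and Gvin1 (1.21, 0.0471 and 0.711), one of the very large inducible GTPases. Irgq, which lacks the interferon response of its relatives, had a log2 fold change of -0.29 and was highest in PBS tumor 3 (55.9 CPM). Irgc1 was listed at 0 counts in all tumors.

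By pattern over the 6 tumors, the tested genes outside the members that came closest to the members' mean were Ciita, Gbp6, F830016B08Rik, Tgtp2 and Il18r1. The measure was the root-mean-square distance between z scores of log2 CPM, which was 0.085 for Ciita and 0.116 for Il18r1, against 0.078 for Iigp1 and 0.226 for Irgm2 among the members themselves. The members were measured against a mean that includes them, and even so 24 genes outside them were closer than Irgm2. Because z scores leave out the size of a difference, Alg8 was at 0.156 with only 39.5 to 49.5 CPM across the tumors. Ciita, the master regulator of MHC class II genes and a classical target of interferon-gamma, was at 1.1, 2.92 and 0.141 CPM in the PBS tumors and at 1.0, 2.18 and 5.59 CPM in the GB2 tumors. Gbp6 was at 4.8, 12.9 and 0.495 CPM in the PBS tumors and at 2.33, 11.9 and 24.7 CPM in the GB2 tumors. F830016B08Rik and Il18r1 were at 1.21 CPM or less in every tumor and were listed at 0 in PBS tumor 3.

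The cytokine itself was near the detection limit. Ifng had 4, 20 and 0 counts in the PBS tumors and 0, 0 and 8 counts in the GB2 tumors, which is at most about 5 read pairs, so it was not tested. In PBS tumor 3 and in GB2 tumors 1 and 2 it was not detectable at this depth. Of 12 genes of interferon-gamma signaling, 11 were tested, all 11 had a log2 fold change above 0 (48.3% of all tested genes) with a median of 0.52, and 2 had an unadjusted p under 0.05 (6.94%). Those were Irf9 (log2 fold change 1.15, unadjusted p 0.00274, adjusted p 0.276 in edgeR), a subunit of the factor activated by type I interferon, and Irf8 (1.14, 0.0421 and 0.700), a myeloid transcription factor. The receptor chain gene Ifngr2 and the kinase gene Jak1 were the most abundant, at 13.7 and 14.6 FPKM, with log2 fold changes of 0.23 and 0.36. Neither was lowest in PBS tumor 3.

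Interferon-gamma targets outside the GTPases were read next. Of 19 tested targets, 16 were lowest in PBS tumor 3 (19.4% of all tested genes) and 10 were highest in GB2 tumor 3 (14.3%). A log2 fold change above 0 was seen in 10 of 19, near the share of all tested genes (48.3%), and the median was 0.02. In edgeR 0 had an unadjusted p under 0.05 (6.94% of all tested genes). The most abundant were B2m, the light chain of MHC class I, and H2-D1, one of its heavy chains. B2m was at 745, 656 and 144 CPM in the PBS tumors and at 277, 538 and 755 CPM in the GB2 tumors. H2-D1 was at 385, 476 and 99.7 CPM in the PBS tumors and at 165, 336 and 567 CPM in the GB2 tumors. Serpina3g (log2 fold change 1.51, adjusted p 0.752) and Cxcl11 (1.11 and 0.787) had the smallest p values. Cxcl9, a chemokine that attracts T cells and depends on interferon-gamma, was at 1.67, 11.2 and 0.509 CPM in the PBS tumors and at 3.41, 7.77 and 18.2 CPM in the GB2 tumors, and so shared the highest and lowest tumors of the GTPases.
Of 14 type I interferon-stimulated genes, all 14 were highest in GB2 tumor 3 and 12 were lowest in PBS tumor 3. All 14 had a log2 fold change above 0 (48.3% of all tested genes), with a median of 0.82. Of these, 5 had an unadjusted p under 0.05 in edgeR (6.94% of all tested genes), 0 were called, and 6 had all GB2 tumors above all PBS tumors (8.61% of all tested genes). Irf7 (log2 fold change 1.64, adjusted p 0.341) and Oasl1 (1.47 and 0.474) had the smallest p values and were among those 6. Isg15 and Ifit2 were the most abundant, with log2 fold changes of 0.04 and 0.33.

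Marker genes of cell types were read beside the members. The 10 macrophage markers summed to 43.6, 59.6 and 42.8 FPKM in the PBS tumors and to 173, 168 and 235 FPKM in the GB2 tumors, and all 10 had an unadjusted p under 0.05 and were higher in GB2 tumors (4.69% of all tested genes). All GB2 tumors were above all PBS tumors in 10 of 10 of them and in 8.61% of all tested genes. Among the GTPases, PBS tumors 1 and 2 were above GB2 tumor 1 in 8 and 10 of the 10 members. The 8 T cell markers summed to 1.02, 3.29 and 0.433 FPKM in the PBS tumors and to 0.912, 0.975 and 2.83 FPKM in the GB2 tumors. Lck alone made up 0.354, 0.746 and 0.343 FPKM of these sums in the PBS tumors. In the GB2 tumors it made up 0.708, 0.378 and 1.21 FPKM. Cd3e, Cd3d, Cd3g, Cd8b1 and Trac were listed at 0 in PBS tumor 3. The 8 NK and cytotoxic markers summed to 0.770, 1.71 and 0.168 FPKM in the PBS tumors and to 0.807, 1.29 and 2.64 FPKM in the GB2 tumors, and the NK receptor gene Ncr1 was listed at 0 in 5 of the 6 tumors. Dendritic cell markers summed to 1.14 to 1.70 FPKM in PBS tumors and 2.26 to 2.76 in GB2 tumors. Itgax alone made up 0.282, 0.415 and 0.172 FPKM of these sums in the PBS tumors. In the GB2 tumors it made up 0.781, 1.19 and 1.22 FPKM. It was the only 1 of the 4 tested dendritic cell markers with all GB2 tumors above all PBS tumors (8.61% of all tested genes). Batf3 went the other way, with a log2 fold change of -0.58. Endothelial markers (6.85 to 9.78 FPKM in PBS tumors, 19.7 to 22.8 in GB2 tumors) and fibroblast markers (31.8 to 58.2 and 107 to 155 FPKM) were higher in all GB2 tumors. Skin keratinocyte markers summed to 35, 15.1 and 9.19 FPKM in the PBS tumors and to 33.0, 38.0 and 56.6 FPKM in the GB2 tumors, so that their sum, like each GTPase, was lowest in PBS tumor 3 and highest in GB2 tumor 3. Muscle markers summed to 43.5, 38.5 and 65.3 FPKM in the PBS tumors and to 99, 86.5 and 82.9 FPKM in the GB2 tumors.
The tumors in which all 10 GTPases had their extremes were also those of some cell type lists and not of others. PBS tumor 3 was the lowest in 7 of 10 macrophage, 4 of 6 fibroblast, 5 of 6 skin keratinocyte and 4 of 6 NK and cytotoxic markers, and in 5 of 8 T cell markers with 3 more tied at 0. GB2 tumor 3 was the highest in 9 of 10 macrophage, 6 of 6 fibroblast, 3 of 6 skin keratinocyte and 5 of 6 NK and cytotoxic markers, but in 1 of 8 T cell markers. Among the remaining lists, PBS tumor 3 was the lowest in 3 of 4 dendritic cell, 2 of 6 endothelial, 3 of 5 epithelial and 0 of 6 muscle markers. GB2 tumor 3 was the highest in 0 of 4 dendritic cell, 3 of 6 endothelial, 2 of 5 epithelial and 0 of 6 muscle markers. The part of these cell types in the levels of the GTPases was not tested.

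**Figure D4:**
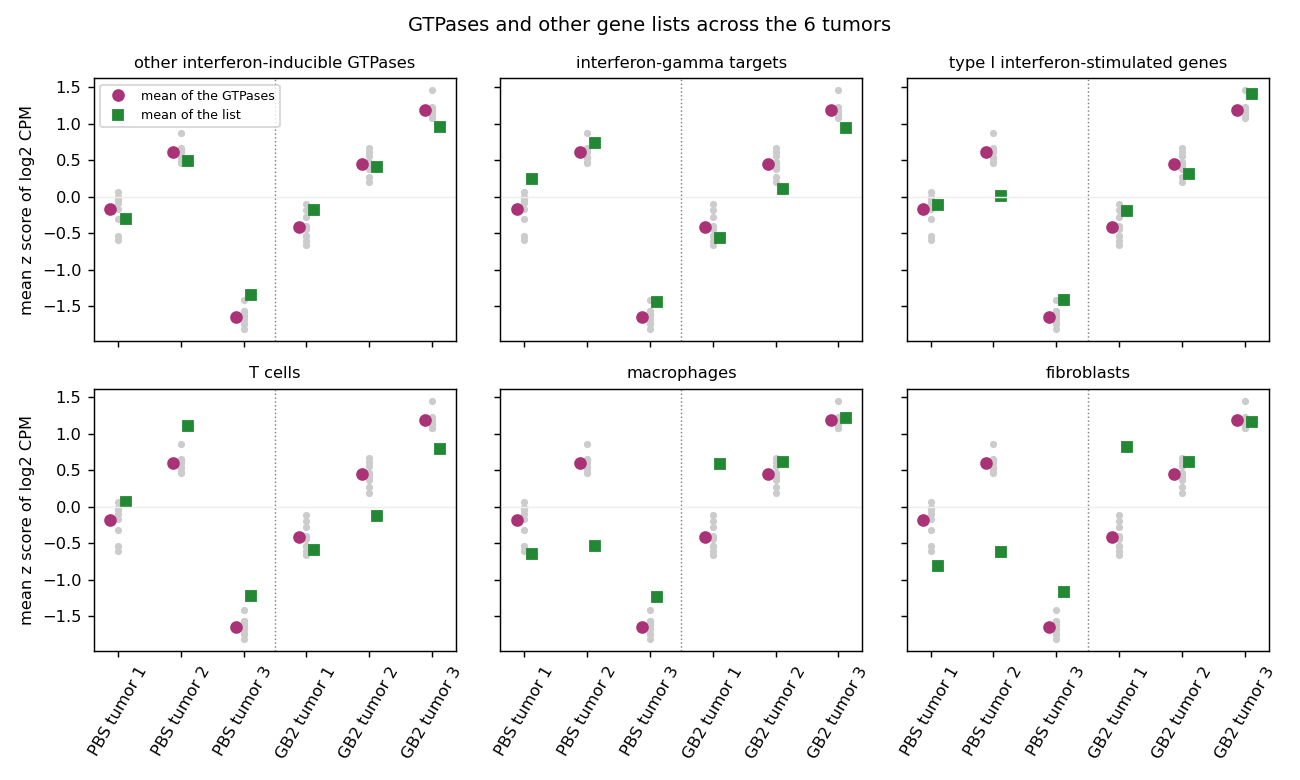
Mean z score of log2 CPM in each tumor for the 10 GTPases (purple circles, single members as grey points) and for 6 other gene lists (green squares), with PBS tumors left and GB2 tumors right of the dotted line. PBS tumor 3 has the lowest mean of the GTPases (-1.64) and of all 6 lists. These are other interferon-inducible GTPases (-1.35), interferon-gamma targets (-1.44), type I interferon-stimulated genes (-1.42), and macrophage (-1.23), T cell (-1.22) and fibroblast (-1.16) markers. GB2 tumor 3 has the highest mean of the GTPases (1.19), other interferon-inducible GTPases (0.95), interferon-gamma targets (0.94) and type I interferon-stimulated genes (1.40). It also has that of the macrophage (1.21) and fibroblast (1.16) markers, and PBS tumor 2 that of the T cell markers (1.10).

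**Figure D5:**
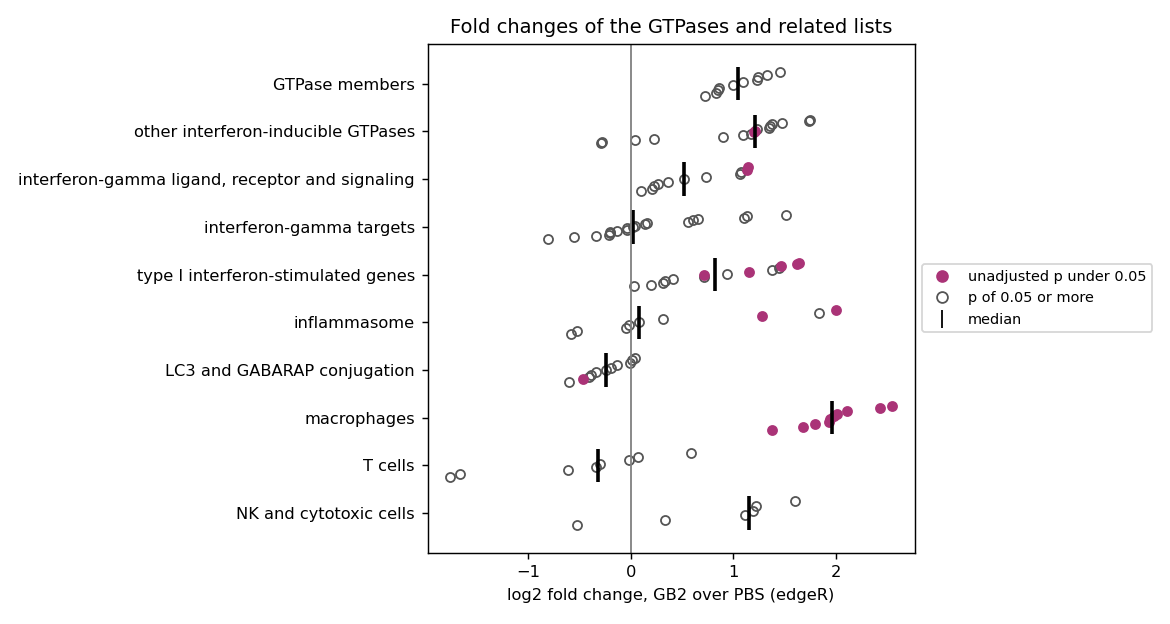
Log2 fold change of GB2 over PBS tumors from edgeR for the tested genes of 10 lists, with filled points for an unadjusted p under 0.05 and a bar at each median. The GTPase members have a median of 1.04 with no filled point, the interferon-gamma targets a median of 0.02, and the macrophage markers a median of 1.96 with all points filled.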

How the data were processed

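Poly-A selected, stranded, paired-end libraries of 3 PBS and 3 GB2 tumors were sequenced. The submitters' processing notes name cutadapt 1.9, HISAT2 2.2.1, StringTie 2.1.6, DESeq2, edgeR and the build mm10, without giving their roles. The authors deposited whole-number estimated counts for each gene and tumor, not scaled between tumors, in which the value 4 is more frequent (7017 times) than 3 (2984) or 5 (2017). The values 1 (5446 times) and 2 (4996) are also more frequent than 3. The FPKM values the authors deposited are scaled by transcript length and library total. The table's positions are not those of GRCm38 (0 of 10 members and 641 of 31999 genes match GENCODE M21), so positions from the table and from RefSeq promoters were never combined.
The main test was that of edgeR 4.0.16 under R 4.3.3 (filterByExpr with a minimum count of 10, TMM, glmQLFit and glmQLFTest, Benjamini-Hochberg adjustment over all 19602 genes tested). Standard errors come from the test statistic, and SDs and z scores are of log2 CPM with 2 as prior count. Calls needed an adjusted p below 0.05 with a 2-fold change or more, the limits in the study's methods. The alternatives were RLE and upper-quartile factors, no filter, DESeq2 1.42.0, counts divided by 4, limma 3.58.1 on log2(FPKM + 1) and log2(FPKM + 0.1) for genes with a mean of at least 0.5 FPKM, each tumor left out, and the tumor number as a block. The computations were tested on simulated data. The members and lists were chosen with earlier results of these data known. All members were named, and each other list by its 2 genes with the highest mean FPKM and its 2 with the smallest p. Genes on which a result turns (Irgq, Irgc1, Ifng, Cxcl9 and marker genes) were named after their values were seen. The results of 1 gene are not reported here.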

Additional observations from a re-analysis of the deposited data

How the results depend on the processing

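All 10 members kept a log2 fold change above 0 with RLE and upper-quartile factors, no filter, DESeq2, counts divided by 4 and the replicate block, as did the 9 that passed the FPKM limit in both limma fits (Gbp5 did not pass it). Their median ran from 0.85 with the replicate block to 1.40 with limma on log2(FPKM + 0.1). Members called were 0 under every alternative. DESeq2 called 385 genes in all and gave 1 member an unadjusted p under 0.05. With each tumor left out, 0 to 2 members had an unadjusted p under 0.05, 7 to 10 were above 0, and the median ran from 0.09 to 2.18. The log2 fold change ran from -0.15 to 2.42 for Gbp4, from -0.11 to 1.55 for Irgm1 and from -0.17 to 2.71 for Tgtp1, the lowest without GB2 tumor 3 and the highest without PBS tumor 2. The cause was not tested. Deviations from the group means correlated across genes at 0.03, 0.15 and -0.24 between tumors of equal number. These values cannot decide whether tumors were paired by number. The deviations of a group sum to 0, and tumors of unlike number were not compared. With the number as a replicate block, 0 genes were called, as without it. Gbp5, at 15 counts in PBS tumor 3, is the member most limited by depth.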

Other observations

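Genes of the machinery with which these GTPases work were read in the same tumors. Of 9 inflammasome genes, 5 had a log2 fold change above 0 (48.3% of all tested genes) and the median was 0.08. Il1b, the cytokine matured by caspase-1, had the smallest p, with 1.47, 1.72 and 0.75 CPM in the PBS tumors and 6.05, 5.19 and 4.55 CPM in the GB2 tumors (log2 fold change 2.00, adjusted p 0.207 in edgeR). The DNA sensor gene Aim2, to whose inflammasome guanylate-binding proteins expose microbial DNA, followed (1.28, adjusted p 0.653). All GB2 tumors were above all PBS tumors in 3 of the 9 genes, Il1b and Aim2 among them, against 8.61% of all tested genes. In 1 (Il18) all GB2 tumors were below all PBS tumors, against 6.68%. The most abundant genes of this list, Ninj1 and Il18, had log2 fold changes of -0.05 and -0.52.
The LC3 and GABARAP conjugation machinery, which guides the GTPases to vacuoles, had log2 fold changes that were mostly below 0. Of its 11 genes, 2 had a log2 fold change above 0 (48.3% of all tested genes), and the median was -0.24. PBS tumor 1 stood apart: 7 of the 11 genes were highest there, and the mean z score was 1.07, against -0.06 for PBS tumor 2 and 0.09 for PBS tumor 3. The GB2 tumors had mean z scores of -0.35, -0.18 and -0.57. In a comparison added after seeing the data, without PBS tumor 1 the median was -0.10 and 3 of the 11 were above 0. With each of the other tumors left out the median ran from -0.37 to -0.21. Gabarap, the most abundant, was at 235, 161 and 186 CPM in the PBS tumors and at 143, 135 and 144 CPM in the GB2 tumors (log2 fold change -0.47, unadjusted p 0.0395, adjusted p 0.690 in edgeR). Atg7, the activating enzyme, had a log2 fold change of -0.34, and Gabarapl1 one of -0.13. The within-group SD of this list had a median of 0.24, against 1.68 for the GTPases, and 1 of its 11 genes was lowest in PBS tumor 3.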
